A study of Homo sapiens with 18 samples.

Results

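Gap junctions are clusters of channels that join the cytoplasm of touching cells, and each channel is built from connexins, a family of membrane proteins encoded by the GJ genes. The members described here are 5 of the 21 connexin genes listed in a table of 19901 genes: GJB2 (connexin 26), GJB5, GJB6 (connexin 30), GJA1 (connexin 43) and GJC1 (connexin 45). They were picked by symbol around GJB2, because its mRNA was higher with hepatocyte growth factor (HGF) in FaDu cells and not in Detroit 562 cells. These HGF values of GJB2 are therefore given as a description without a test, and the question put to the data was whether its 4 relatives moved in the same way.

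In squamous epithelium, GJB2 and GJB6 products can enter the same channel, GJA1 is the most widely used connexin of epithelial and connective tissue, and GJB5 belongs to the keratinocyte set. GJC1 is best known from heart and vascular smooth muscle. HGF binds the receptor tyrosine kinase MET, switches on the MAP kinase and phosphoinositide 3-kinase pathways, and is known as scatter factor because it makes epithelial colonies come apart.

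Poly(A) RNA was sequenced from 3 head and neck squamous carcinoma lines, each left untreated or given 50 ng/ml HGF, with 3 libraries per group and 18 in all. Detroit 562 came from a metastasis of a pharyngeal tumour, FaDu from a primary hypopharyngeal tumour and SCC-9 from a primary tumour of the tongue. Exposure of these libraries lasted 16 h by the sample records and by the paper's methods for sequencing. The series record gives 48 h for the same libraries, a time that the paper names for its flux assays. Detroit 562 and FaDu grew in MEM-α, whereas SCC-9 grew in DMEM F12 with hydrocortisone, so a difference between SCC-9 and the other lines cannot be told apart from the difference in medium. No gene was altered by the experiment in any group, and each line is a single established culture. The paper cites, from public data, an amplified copy number of the MET gene in Detroit 562. The study's methods state that the experiment was repeated, but the labels tie no replicate number to a run, thaw or passage, so p-values measure the spread between these libraries.

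The libraries held 35304770 to 44003970 counts each. All 11 squamous markers checked, among them KRT5 and TP63, averaged at least 1 CPM (counts scaled to a common library total) in every group. In Detroit 562, 3 of the 11 were called lower with HGF (edgeR, adjusted p below 0.1 and log2 fold change of at least 0.4 in size). When the fit was blocked by replicate number, 4 were. Of all genes tested, 11.7% were called lower without the block and 14.4% with it. The median log2 fold change of the 11 was -0.37, and KRT5 averaged 2105 CPM in control and 1129 CPM with HGF. Of 7 HGF response genes, 6 were called higher in Detroit 562, with 1 for FaDu and 0 for SCC-9 (called by the same rule were 6.16%, 0.0258% and 0% of all genes tested). With the block these counts were 6, 6 and 5 (7.13%, 2% and 0.562% of all genes tested). Fibroblast markers summed to between 3.60 and 99.6 CPM per library, led by COL1A1 or COL1A2, endothelial markers to between 0.639 and 8.34 CPM and melanocyte markers to between 0.574 and 2.54 CPM. The leukocyte list summed to between 17.0 and 57.9 CPM, with CD68 as its highest gene in every group and the only marker of the 4 to average 1 CPM. In Detroit 562 this sum went from between 20.3 and 40.5 CPM in control to between 37.3 and 56.2 CPM with HGF, and the fibroblast sum from between 30.2 and 54.6 to between 15.3 and 27.8. The part of other cell types in the connexin values was not tested, and in bulk RNA fewer cells carrying a transcript cannot be told apart from less transcript per cell.

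In the deposited coordinates (GRCh38), GJB2 lies on the minus strand of chromosome 13 at 20187463 to 20193010, and GJB6 follows on the same strand at 20221962 to 20232395, with 28952 bases and no other listed gene between them. GJB5 lies on the plus strand of chromosome 1 at 34755047 to 34758512. GJA1 is on the plus strand of chromosome 6 at 121435692 to 121449727, and GJC1 is on the minus strand of chromosome 17 at 44798448 to 44830816. All 5 coding sequences lie in 1 coding exon. The coding sequence of GJB2 was closest to that of GJB6, at 74.9% identical aligned bases. None of the members shared a stretch of 75 bases, the read length, with another connexin gene. GJA1 shared 90 of its 3333 such stretches with the processed pseudogene GJA1P1, which is not a row of the table, so reads from those stretches could have been placed at either copy. No gene on the same strand overlapped a member.

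Promoter sequence (RefSeq, GRCh38.p14) was matched for 3 members. It is shown for GJB2, the gene that set the question, and for GJA1, the relative with the smallest adjusted p in Detroit 562. The GJB6 window was wholly annotated as exon and is not shown, and GJB5 and GJC1 had no entry. Capitals mark GC boxes (GGGCGG or its reverse complement CCGCCC) and the AP-1 motif (TGANTCA), both searched on both strands of the 250 bases before the annotated start, and no motif overlapped another. The GJB2 stretch is chr13:20193011-20193188, read on the minus strand, and stops where the deposited gene begins. The GJA1 stretch is chr6:121435396-121435604, read on the plus strand, and stops at the end of the AP-1 motif.
GJB2: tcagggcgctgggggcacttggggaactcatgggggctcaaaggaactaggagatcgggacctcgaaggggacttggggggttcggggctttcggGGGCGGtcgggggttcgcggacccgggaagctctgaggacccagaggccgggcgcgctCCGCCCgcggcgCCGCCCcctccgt
GJA1: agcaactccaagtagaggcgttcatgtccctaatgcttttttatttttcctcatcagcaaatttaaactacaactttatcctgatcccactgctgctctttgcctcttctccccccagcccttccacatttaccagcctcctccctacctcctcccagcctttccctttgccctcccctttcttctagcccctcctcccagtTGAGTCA

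The GJB2 window held 3 GC boxes, which start at positions -155, -97 and -85 from the annotated start, and no AP-1 motif. The GJA1 window held 1 AP-1 motif, at position -48, and no GC box. This motif lies within the last 51 bases of the window, which the GENCODE 44 annotation marks as GJA1 exon (gene start 121435595). Of 35116 promoters of the same length, 42.6% held a GC box and 6.57% an AP-1 motif. Neither window held a TATA box (TATAAA, in 10.7% of promoters) or the E-box CACCTG (in 17.5%). GC content was 70.0% for GJB2 and 48.0% for GJA1, beside a median of 58.0%. These matches describe letters only and say nothing about binding.

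GJB2, whose HGF values were the reason for the choice, was high in Detroit 562 and low in FaDu. In Detroit 562 its level was 44.1, 40.6 and 33.3 CPM (scaled by TMM, edgeR's trimmed-mean normalization) in control replicates 1, 2 and 3, and 40.3, 39.7 and 32.1 CPM in the HGF replicates. The groups overlapped, the HGF library was the lower in all 3 pairs of equal number, and the log2 fold change was -0.08 ± 0.14 (SE). In FaDu it was 3.51, 4.70 and 3.69 CPM without HGF and 7.58, 7.02 and 8.95 CPM with it. Every HGF library lay above every control there, from 148 to 187 counts against 279 to 370 (4.05% of the genes tested showed this order), and the log2 fold change was 0.99 ± 0.16, or 1.98-fold. The FaDu level with HGF was still well under the untreated Detroit 562 level, with means of 7.85 ± 0.995 and 39.3 ± 5.56 CPM (SD, n = 3). The response of Detroit 562 minus that of FaDu was -1.06 ± 0.21 on the log2 scale.

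**Figure D1:**
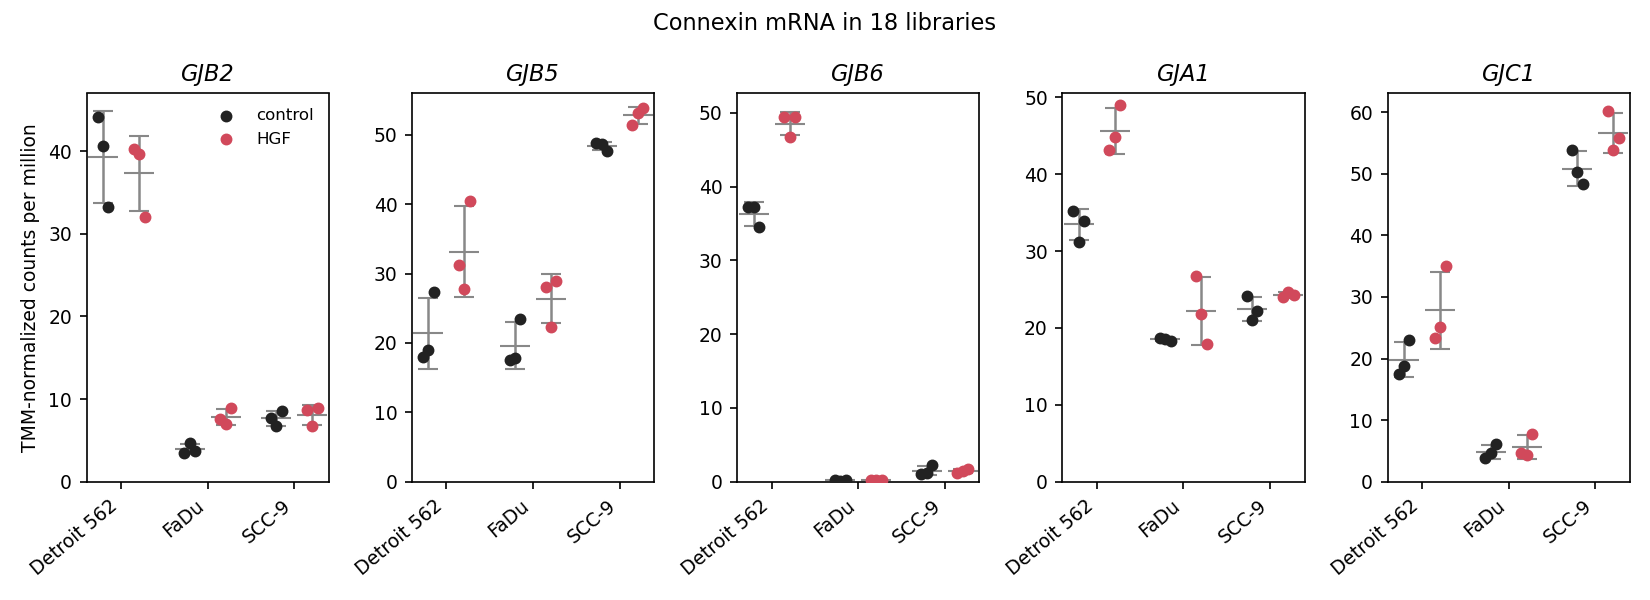
TMM-normalized CPM (linear axes from 0, a separate scale for each gene) of the 5 connexins in 18 libraries. Points are libraries, black for control and red for HGF, and grey bars are the mean ± SD of 3; in Detroit 562 every HGF library lies above every control for GJB5, GJB6, GJA1 and GJC1, and in FaDu for GJB2.

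In Detroit 562, where GJB2 was not higher with HGF, all 4 of them rose, by 1.34-fold to 1.55-fold. A gene was called when its adjusted p (edgeR quasi-likelihood test, Benjamini-Hochberg over 15475 genes tested) was below 0.1 and its log2 fold change at least 0.4 in size. By this rule 6.16% of the genes tested were called higher in Detroit 562 and 11.7% lower.

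GJB5, a connexin of stratified epithelium, had the largest of these changes. It stood at 17.9, 19.0 and 27.3 CPM in the Detroit 562 controls and at 31.2, 27.8 and 40.4 CPM with HGF. The lowest HGF library was only just above the highest control, while within each pair the difference was between 0.55 and 0.80 on the log2 scale. The fitted log2 fold change was 0.63 ± 0.16 (adjusted p = 0.0106, edgeR).

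GJA1, the widely expressed connexin 43, went from 35.2, 31.2 and 34.0 CPM to 43.1, 44.8 and 49.0 CPM. The groups were well apart, with a log2 fold change of 0.45 ± 0.11 (adjusted p = 0.00722, edgeR). GJB6, the neighbour and closest sequence relative of GJB2, went from 37.2, 37.3 and 34.5 CPM to 49.4, 46.7 and 49.4 CPM. Its libraries were tightly grouped on both sides, and the log2 fold change was 0.42 ± 0.16 (adjusted p = 0.0664, edgeR). GJC1 (connexin 45) went from 17.5, 18.8 and 23.0 CPM to 23.3, 25.2 and 35.0 CPM. Its lowest HGF library exceeded its highest control by a small margin, and the log2 fold change was 0.49 ± 0.19 (adjusted p = 0.0688, edgeR).

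For all 4 relatives each HGF library exceeded each control, an order seen in this direction for 18.1% of the genes tested in Detroit 562. For a single gene an exact two-sided permutation test of 3 libraries against 3 cannot give a p below 0.1. With the replicate number as a block, which the pairing of the libraries calls for, the same 4 were called (adjusted p from 8.39e-06 to 0.000469, edgeR) and 7.13% of the genes tested were called higher. Without the block the calls rested on few libraries. The call of GJB6 was lost when any of the 6 Detroit 562 libraries was left out (adjusted p from 0.103 to 0.155, edgeR). The count fell from 4 to 2 without control replicate 1 and to 1, GJB5 alone, without control replicate 2 or HGF replicate 3.

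Among all 12 connexin genes that passed the count filter over the 6 groups, 6 were called higher in Detroit 562 and 0 lower. The median log2 fold change of the 12 was 0.37, beside -0.01 over all genes tested. GJA5, 1 of the 12, passed the filter through SCC-9 and had 0 counts in Detroit 562. Without control replicate 1 or control replicate 2 the count of 6 became 2, and without HGF replicate 3 it became 1. The pannexins, which form channels in single membranes and are not related by sequence, had 0 of 2 tested genes called: the value for PANX1 was 0.34 ± 0.12 on the log2 scale (adjusted p = 0.0447, edgeR), under the minimum size, and for PANX2 -0.39 ± 0.24 (adjusted p = 0.255, edgeR).

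**Figure D2:**
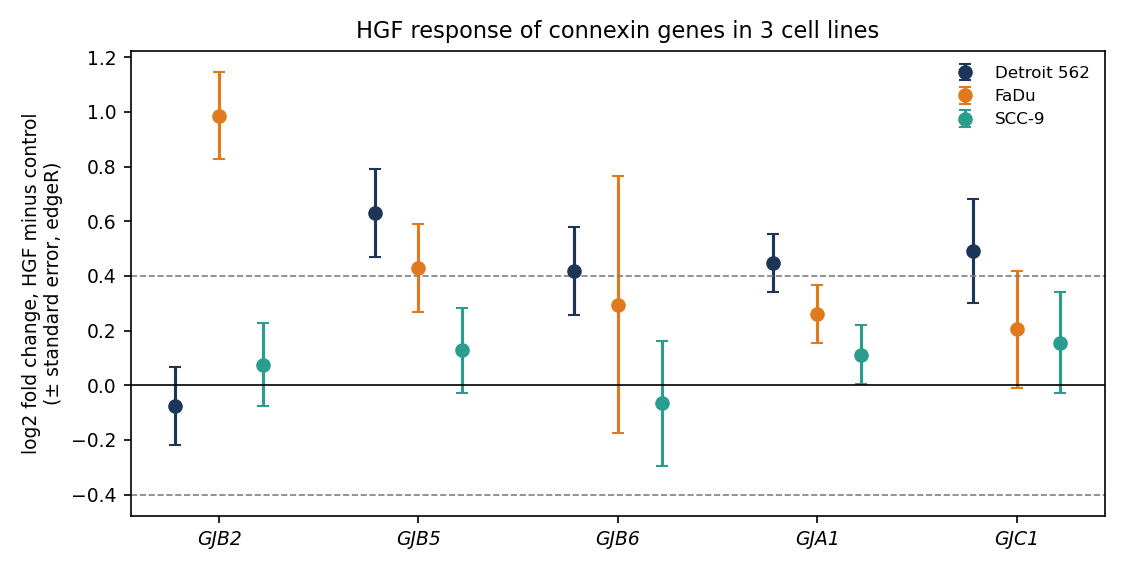
Log2 fold change of HGF minus control (edgeR, error bars ± SE) for the 5 members in Detroit 562 (blue), FaDu (orange) and SCC-9 (green); dashed lines mark the minimum size of 0.4. GJB2 stands at 0.99 in FaDu and near 0 elsewhere, while its relatives have their highest values in Detroit 562 and lie between -0.07 and 0.16 in SCC-9.

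In FaDu, where GJB2 was 1.98-fold higher, none of the 4 relatives was called by the fit without a block. Only 0.0258% of the genes tested were called higher there, 4 in all. At an unadjusted p below 0.05 there were 2 relatives, GJB5 and GJA1, and 1247 genes in all, whereas DESeq2 (shrunken fold changes) called 0 relatives and 0.464% of the genes it adjusted. The paper, with DESeq2 and the same thresholds, reported more regulated genes in FaDu than either of these fits called, so the number of calls depends on the fit. GJB5 was at 17.5, 17.8 and 23.5 CPM in control and 28.0, 22.3 and 28.9 CPM with HGF. The groups overlapped through control replicate 3, but the HGF library was the higher in all 3 pairs, and the log2 fold change was 0.43 ± 0.16 (adjusted p = 0.557, edgeR). With the replicate block GJB5 was called (log2 fold change 0.43 ± 0.07, adjusted p = 0.00188, edgeR), and 2% of the genes tested were called higher. The 4 relatives had positive log2 fold changes in FaDu, where the median over all genes tested was -0.0039. That of GJC1 fell to -0.09 with 1 library left out. No test compared the response of a relative with that of GJB2.

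GJA1 in FaDu was at 18.7, 18.6 and 18.3 CPM in control and 26.8, 21.8 and 17.9 CPM with HGF. The controls were nearly level and the HGF libraries spread from below to well above them, with a log2 fold change of 0.26 ± 0.11 (adjusted p = 0.583, edgeR) and, with the block, 0.25 ± 0.09 (adjusted p = 0.086, edgeR), under the minimum size. GJC1 was at 3.87, 4.67 and 6.08 CPM in control and 4.66, 4.40 and 7.79 CPM with HGF. It was higher in 2 of 3 pairs, with a log2 fold change of 0.20 ± 0.21 (adjusted p = 0.800, edgeR). GJB6 had 5 to 10 counts in the FaDu controls and 7 to 12 with HGF, a depth at which a change of the size seen in Detroit 562 was not detectable (log2 fold change 0.29 ± 0.47, adjusted p = 0.880, edgeR).

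In SCC-9 none of the 5 members was called with HGF, with or without the block. No gene of the table was called there by edgeR without the block, against 641 at an unadjusted p below 0.05, 305 (1.97%) with the block and 19 (0.13%) by DESeq2. The paper reported more regulated genes in SCC-9 than this DESeq2 fit called, and fewer than the fit with the block. No member reached an unadjusted p below 0.05 without the block. GJB2 was at 7.68, 6.77 and 8.59 CPM in control and 8.63, 6.71 and 8.94 CPM with HGF, with replicate 2 the lowest of both groups (log2 fold change 0.08 ± 0.15, adjusted p = 1, edgeR). GJB5 was at 48.8, 48.6 and 47.7 CPM in control and 51.5, 53.1 and 53.9 CPM with HGF. These groups did not overlap, as for 8.3% of the genes tested in this direction in SCC-9, but the log2 fold change was 0.13 ± 0.16 (adjusted p = 1, edgeR). The log2 fold changes of GJA1, GJC1 and GJB6 were 0.11 ± 0.11, 0.16 ± 0.18 and -0.07 ± 0.23 (adjusted p = 1 for each, edgeR). GJB6 counts in SCC-9 were 44 to 89 in control and 47 to 71 with HGF.

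**Figure D3:**
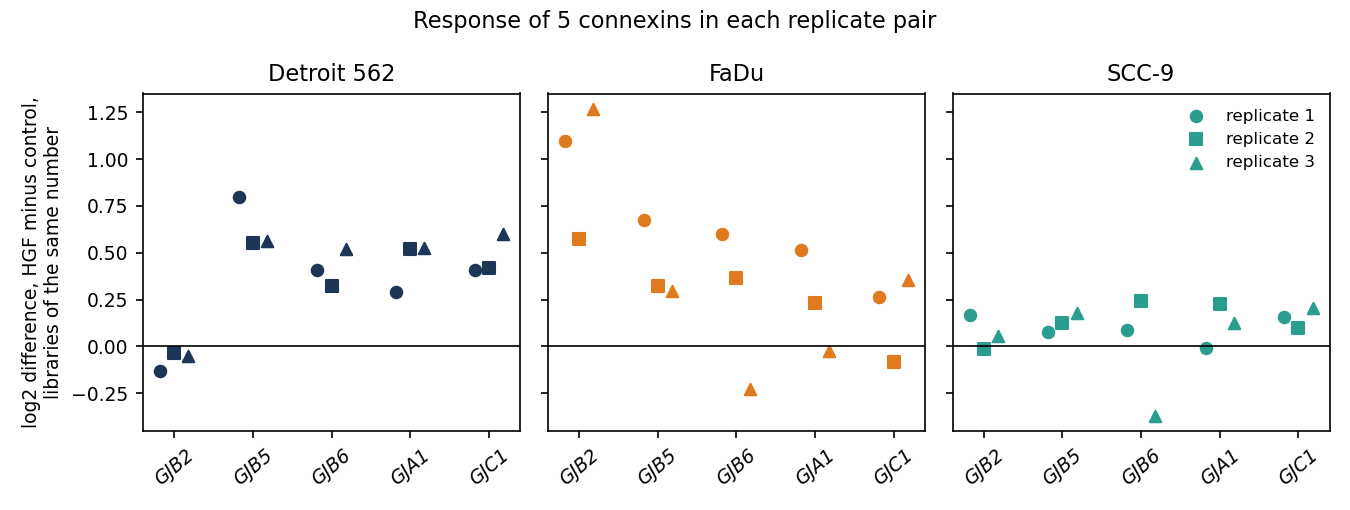
Log2 difference of each HGF library from the control library of the same replicate number (prior count of 2 on both) for the 5 connexins in the 3 lines; the marker shape gives the replicate number. In Detroit 562 all pairs of the 4 relatives lie above 0 and all pairs of GJB2 below it, and within each FaDu pair GJB2 lies highest.

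Averaged over the 3 lines, where 6.89% of the genes tested were called, none of the 4 relatives reached the minimum size. GJB5 came nearest, with a log2 fold change of 0.396 ± 0.09 (adjusted p = 0.0105, edgeR), followed by GJC1 at 0.28 ± 0.11 (adjusted p = 0.0898, edgeR), GJA1 at 0.27 ± 0.06 (adjusted p = 0.00905, edgeR) and GJB6 at 0.22 ± 0.18 (adjusted p = 0.428, edgeR). At an unadjusted p below 0.05 (edgeR) there were 3 relatives, beside 5338 of the 15475 genes tested. DESeq2 called 0 of the relatives, beside 7.21% of all genes.

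Whether the relatives responded differently in 2 lines was tested on the difference of the responses itself. Between Detroit 562 and FaDu none of the 4 passed the test (adjusted p from 0.651 to 0.951, edgeR; 0.239% of the genes tested did), with differences between 0.12 ± 0.52 for GJB6 and 0.29 ± 0.29 for GJC1 on the log2 scale. None had an unadjusted p below 0.05, as 1788 of the 15475 genes tested had. DESeq2 found 0 (1.85% of all genes), and the fit with the block found 0 as well (19.1% of the genes tested). The calls in Detroit 562 and their absence in FaDu without the block therefore do not show that the relatives responded differently in these lines. With the block GJB5 was called in FaDu too. Between Detroit 562 and SCC-9, 0 of 4 passed without the block (0.924% of the genes tested did) and 4 of 4 with it (26.9% of the genes tested). Without the block 2 relatives had an unadjusted p below 0.05, beside 2378 of the 15475 genes tested. DESeq2 found 0 relatives there, beside 4.56% of all genes. Between FaDu and SCC-9 none of the 4 passed without or with the block (0 and 1.32% of the genes tested). At an unadjusted p below 0.05 there were 0 relatives without the block (337 genes in all) and 1 with it (1525 genes in all). DESeq2 found 0 relatives, beside 0.0256% of all genes. These differences share libraries with the single-line comparisons and are not separate evidence.

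Without HGF the connexins differed between the lines, and GJB6 and GJC1 did so in each pair of lines by more than HGF changed them. Between untreated lines, 61% of all genes tested were called for Detroit 562 against FaDu, 65.4% for Detroit 562 against SCC-9 and 64.2% for FaDu against SCC-9, so a call by itself does not set a connexin apart. GJB6 spanned the widest range: 36.3 ± 1.60 CPM in Detroit 562, 1.51 ± 0.661 in SCC-9 and 0.176 ± 0.0552 in FaDu (SD, n = 3 for each). The log2 difference was 7.66 ± 0.27 for Detroit 562 minus FaDu (adjusted p = 2.91e-13, edgeR) and 4.59 ± 0.20 for Detroit 562 minus SCC-9 (adjusted p = 3e-12, edgeR). FaDu was lower than SCC-9, at -3.07 ± 0.33 (adjusted p = 2.4e-07, edgeR). GJB2 took the same order of Detroit 562 over SCC-9 over FaDu, with means of 39.3 ± 5.56, 7.68 ± 0.908 and 3.97 ± 0.639 CPM (SD, n = 3). Its log2 differences were 3.31 ± 0.16 for Detroit 562 minus FaDu, 2.36 ± 0.15 for Detroit 562 minus SCC-9 and -0.95 ± 0.16 for FaDu minus SCC-9. They are given without a test, since the choice of GJB2 used the control libraries of FaDu and Detroit 562.

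GJB5 and GJC1 were instead highest in SCC-9. GJB5 averaged 48.4 ± 0.634 CPM there, against 21.4 ± 5.14 in Detroit 562 and 19.6 ± 3.37 in FaDu (SD, n = 3). The difference between the latter lines did not pass the test (log2 difference 0.12 ± 0.16, adjusted p = 0.501, edgeR), while both were lower than SCC-9, at -1.18 ± 0.16 and -1.30 ± 0.16 (adjusted p = 4.2e-06 and 1.4e-06, edgeR). GJC1 averaged 50.8 ± 2.83 CPM in SCC-9, 19.8 ± 2.87 in Detroit 562 and 4.87 ± 1.12 in FaDu (SD, n = 3). All 3 of its pairwise differences were called, the widest being FaDu minus SCC-9 at -3.38 ± 0.21 (adjusted p = 2.64e-10, edgeR). GJA1 was the most even, at 33.5 ± 2.04 CPM in Detroit 562, 22.5 ± 1.54 in SCC-9 and 18.5 ± 0.238 in FaDu (SD, n = 3). Its log2 difference was 0.85 ± 0.11 for Detroit 562 minus FaDu and 0.57 ± 0.11 for Detroit 562 minus SCC-9 (adjusted p = 1.76e-06 and 0.000113, edgeR). FaDu minus SCC-9 was -0.28 ± 0.11 (adjusted p = 0.0265, edgeR), under the minimum size.

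Outside the 5 members, GJA5 (connexin 40), known from atrium and arterial endothelium, separated the lines most sharply. It had 1172 to 1492 counts in the 6 SCC-9 libraries, 0 in 11 of the other 12 libraries and 1 in the last.

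To compare genes with each other, CPM was divided by the length of the union of annotated exons, so that each level below is in CPM per kilobase. In untreated Detroit 562, GJB2 at 15.9 ± 2.25 and GJB5 at 15.8 ± 3.79 had ranges that overlapped. The members GJB6 at 11.1 ± 0.488, GJA1 at 9.86 ± 0.600 and GJC1 at 2.27 ± 0.329 were lower, in this order and without overlap (SD, n = 3 throughout). Divided by the length of the transcript with the longest coding sequence instead, GJB6 there came to 17.0 ± 0.749, within the ranges of GJB2 (14.3 to 19.0) and GJB5 (13.2 to 20.2). In untreated FaDu, GJB5 stood at 14.5 ± 2.49, above GJA1 at 5.45 ± 0.0702 and GJB2 at 1.60 ± 0.258, and GJC1 and GJB6 were at 0.559 ± 0.128 and 0.0537 ± 0.0169. In untreated SCC-9 the order of the members and GJA5 was GJB5 at 35.7 ± 0.468, GJA5 at 9.83 ± 1.55, GJA1 at 6.62 ± 0.452, GJC1 at 5.83 ± 0.324, GJB2 at 3.10 ± 0.367 and GJB6 at 0.462 ± 0.202. No neighbours in this order overlapped by exon length, but by transcript length GJA1 (6.84 to 7.83) and GJC1 (6.29 to 7.01) did. Reads in introns are taken to have been counted too. The level of a gene with long introns, such as GJC1 with 32369 bases in all and 8716 in exons, may therefore be set too high on this scale.

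Summed over all 21 connexin genes, the level per kilobase was 36.8 ± 4.81 in untreated FaDu, 89.9 ± 8.58 in Detroit 562 and 123 ± 0.678 in SCC-9, and with HGF it was 49.2 ± 5.03, 121 ± 15.4 and 129 ± 2.95 (SD, n = 3). The HGF libraries lay above the controls in all 3 lines, in FaDu by a small margin (at most 42.2 in control and at least 43.3 with HGF). Among single genes tested, 18.1%, 4.05% and 8.3% showed this order in Detroit 562, FaDu and SCC-9. The sum includes GJB2, whose HGF values chose the set, so its order is a description and tests nothing. GJB2 made up 13.5% to 21.2% of this sum in the Detroit 562 controls and 9.39% to 14.7% with HGF, ranges that overlapped. In FaDu its share was 3.53% to 5.42% without and 5.92% to 6.92% with HGF, and in SCC-9 it was 2.25% to 2.82% and 2.11% to 2.74%. GJB5 kept a share of 37.6% to 41.1% in the FaDu controls and 38.0% to 40.8% with HGF. Without division by length its mean share in the FaDu controls was 23.9% in place of 39.3%. GJB6 made up 10.6% to 13.5% of the sum in untreated Detroit 562 and at most 0.564% in any library of the other lines.

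**Figure D4:**
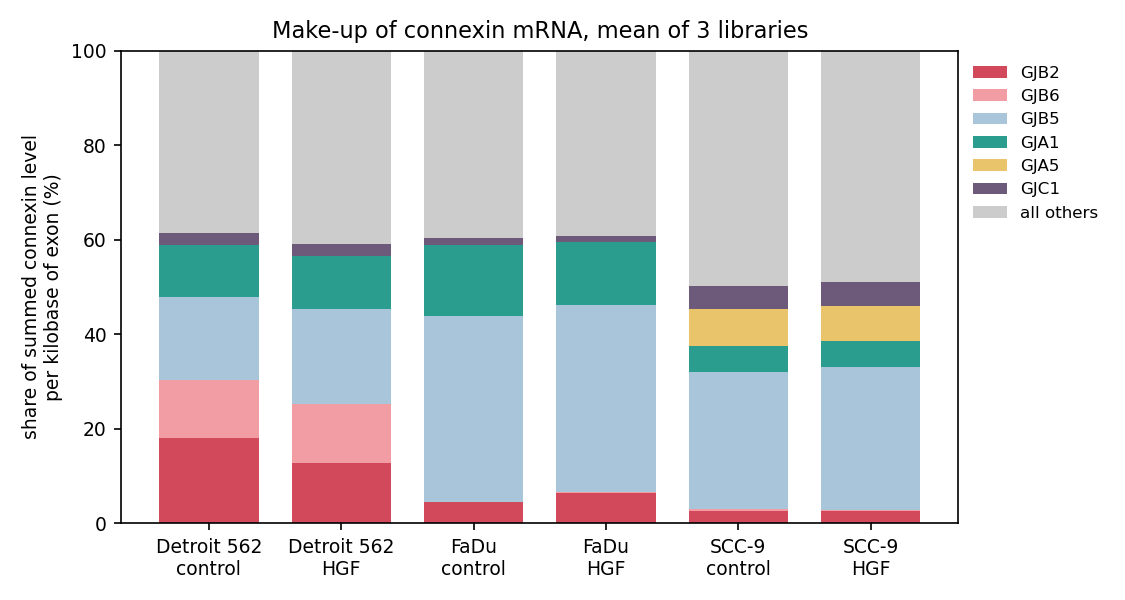
Share of the summed connexin level (percent, from CPM per kilobase of exon, mean of 3 libraries) taken by the 5 members, by GJA5 and by all other connexin genes together, in the 6 groups. GJB6 is visible only in Detroit 562, GJA5 only in SCC-9, and GJB5 is the largest of the named genes in FaDu and SCC-9.

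The genes with patterns most like that of each member were sought by Pearson's r of log2 CPM over 18 libraries, which share 3 lines and are given without a test. For GJB2 they were PLEKHG4B, PCDH7, TRMT2B, NYAP2 and ABHD11, with r from 0.976 down to 0.969. GJB6 and GJA1 had r of 0.949 and 0.899 with GJB2, GJC1 0.32 and GJB5 -0.12, values that mostly carry the differences between lines. After each line's mean was subtracted, r with GJB2 was 0.21 for GJB6, 0.20 for GJA1, 0.22 for GJB5 and 0.13 for GJC1. Genes much like GJB2 were then STC1, HCN2, MT2A and PTK6, with r from 0.793 to 0.753.

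Genes with a pattern much like that of GJB5 after the line means were subtracted were DUSP7 and C1orf109 (r = 0.982 and 0.975, 18 libraries), and its r with GJC1 was 0.814. Over the 18 libraries as they stood, the nearest genes were RHOC, RP11-426L16.10 and AFAP1L1 for GJB5, GLA, CNOT11 and CCDC85C for GJB6, NUP88, NLN and GRSF1 for GJA1, and SAMD4A, TTLL11 and PGBD1 for GJC1, with r from 0.964 to 0.997.

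Genes whose products bind, modify or turn over connexins were looked at as a list of 36, all of them tested. In Detroit 562, 2 rose and 6 fell with HGF (background 6.16% and 11.7%), and the median log2 fold change was 0.05. DBN1, an actin-binding protein that holds connexin 43 at the membrane, rose by 0.56 ± 0.08 (adjusted p = 0.000713, edgeR), and SMURF2, a ubiquitin ligase, by 0.60 ± 0.18 (adjusted p = 0.024, edgeR). TJP3 (ZO-3), a scaffold of tight junctions, fell by 1.80 ± 0.32 on the log2 scale (adjusted p = 0.00177, edgeR). CDH1 (E-cadherin), on whose adhesion gap junction assembly depends, fell by 0.49 ± 0.10 (adjusted p = 0.00364, edgeR). The kinases PRKCA, PRKCD and MAPK3 and the trafficking protein RAB20 fell by 0.48, 0.49, 0.44 and 0.45 on the log2 scale (adjusted p from 0.00266 to 0.0266, edgeR). TJP1 (ZO-1), the main scaffold of connexin 43, was not among those called. None of the 36 was called in FaDu or SCC-9 without the block, and with it TJP3 fell by 1.36 in FaDu (adjusted p = 0.000155, edgeR), where 3.6% of the genes tested were called lower.

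Of 22 transcription factors named for connexin promoters or squamous differentiation, 2 rose and 2 fell in Detroit 562, and 2 and 4 with the block. Beside backgrounds of 6.16% higher and 11.7% lower, and of 7.13% and 14.4% with the block, these counts do not set the list apart. FOSL1, an AP-1 subunit, rose by 1.55 ± 0.34 (adjusted p = 0.00475, edgeR), and SNAI2 (Slug), a repressor of epithelial genes, by 0.56 ± 0.17 (adjusted p = 0.0213, edgeR). GRHL3, a factor of epidermal differentiation, fell by 1.66 ± 0.30 (adjusted p = 0.00197, edgeR), and JUND, another AP-1 subunit, by 0.67 ± 0.25 (adjusted p = 0.0566, edgeR). None was called in FaDu or SCC-9 without the block. With it FOSL1 rose by 0.81 in FaDu while GRHL3 and JUND fell by 1.13 and 0.46 there (adjusted p from 0.000243 to 0.0021, edgeR), and OVOL1 fell by 0.67 in SCC-9 (adjusted p = 0.00087, edgeR). The part of these factors in the connexin values was not tested.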

How the data were processed

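The authors sequenced stranded poly(A) libraries (single-end, 75 cycles) from 18 samples and deposited raw read counts per gene. Per the labels and the study's methods, reads were trimmed with cutadapt 1.16, aligned with STAR 2.5.2b to GRCh38 and counted per gene with bedtools. The command in the methods counts reads on the strand opposite to the gene annotation. The deposited coordinates give a start and an end for each gene, so introns are taken to be included. Tool versions are from the submitters' processing notes. Library totals of 35304770 to 44003970 counts set the precision.

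From these counts, edgeR 4.0.16 (R 4.3.3) fitted 6 group means to all 18 libraries by quasi-likelihood, after filterByExpr and TMM scaling. A gene was called when its Benjamini-Hochberg adjusted p was below 0.1 and its log2 fold change reached 0.4 in size, and a difference of responses at the adjusted p alone. DESeq2 1.42.0, a replicate block within each line, other scalings, filters and thresholds, and leaving out each library were alternatives. Deviations from the group means correlated between HGF and control libraries of equal replicate number in every line (r from 0.161 to 0.563). From these values the numbers were taken to pair the libraries. Between unequal numbers the mean r per line was from -0.227 to -0.136. Negative values there follow from subtracting each group's own mean and are not separate evidence of pairing. The fit was tested on simulated data. Coding sequences were aligned with Biopython 1.88.

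The 5 members, and all gene lists, were chosen with earlier results of these data known. All members are named in each comparison, other connexins where called or marked by level, and partners and factors where called. Some genes that met this rule are counted but not reported here by name.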

Additional observations from a re-analysis of the deposited data

Results flagged for a closer look

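In the fit blocked by replicate number, the HGF response of the 4 relatives of GJB2 was higher in Detroit 562 than in SCC-9 by a test of the difference itself (edgeR). The differences on the log2 scale were 0.51 for GJB5 (adjusted p = 0.00323), 0.32 for GJC1 (adjusted p = 0.0244), 0.47 for GJB6 (adjusted p = 0.0602) and 0.33 for GJA1 (adjusted p = 0.0635). In Detroit 562 the HGF library was the higher in 3 of 3 pairs for GJB5, GJC1, GJB6 and GJA1. In SCC-9 it was also the higher in 3 of 3 pairs for GJB5 and GJC1, and in 2 of 3 for GJB6 and GJA1. In this fit 26.9% of all genes tested differed between these lines, and without the block none of the 4 passed (adjusted p from 0.305 to 0.572, edgeR).

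Groups of 3 libraries were too small to look for single libraries that stand apart.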

How the results depend on the processing

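The counts of members called were recomputed under each alternative, and for results that moved the cause was not tested. In Detroit 562 the count of 4 was between 1 and 4 with 1 library left out, and that of 6 among all connexins between 1 and 6. Both became 0 at the stricter threshold (adjusted p below 0.05, log2 fold change of at least 1), and with upper-quartile scaling GJB6 fell just under the minimum size. Counts that hold GJB2, whose HGF values chose the set, are a description and test nothing about it. In FaDu the count of 1 is GJB2, for members and for all connexins. With the replicate block it became 2 and 3, fitted on FaDu alone 0 and 0, with 1 library left out 0 to 1, and at the stricter threshold 0. For the average over lines the count of 0 became 1 with no filter on low counts, 4 with no minimum fold change and 0 to 1 with 1 library left out. The 4 are GJB2 and the relatives other than GJB6. No share of all genes was taken for that looser rule, so this count has no background beside it. For the difference of responses between Detroit 562 and FaDu the count of 1, again GJB2, became 0 when only these lines were fitted and was 0 to 1 with 1 library left out. Between Detroit 562 and SCC-9 the count of 0 became 4 with the replicate block and 0 to 1 with 1 library left out, and between FaDu and SCC-9 it became 1, GJB2, with the block. The block changed no other call of a member.

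The log2 fold change of GJB2 in Detroit 562, a description, lay between -0.18 and 0.0225 with 1 library left out, above 0 without control replicate 1 or HGF replicate 3. The direction of 11 values that were tested and not called turned when 1 library was left out, and each range below is over all libraries left out in turn. The log2 fold change of GJC1 in FaDu ranged from -0.09 (without FaDu HGF replicate 3) to 0.40. In SCC-9 that of GJB2 ranged from -0.0076 (without control replicate 2; -0.0016 without HGF replicate 3) to 0.19, and that of GJB6 from -0.27 to 0.34 (without control replicate 3; 0.083 without HGF replicate 1). Untreated Detroit 562 minus FaDu ranged from -0.087 (without Detroit 562 control replicate 3) to 0.28 for GJB5. The response of Detroit 562 minus FaDu ranged from -0.14 (without FaDu control replicate 3) to 0.35 for GJB6. The response of FaDu minus SCC-9 ranged from -0.035 (without SCC-9 control replicate 3) to 0.63 for GJB6, from -0.011 (without FaDu HGF replicate 1) to 0.29 for GJA1, and from -0.25 (without FaDu HGF replicate 3; -0.094 without FaDu control replicate 1) to 0.24 for GJC1. Depth limits GJB6 in FaDu, with 5 to 12 counts per library.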
